A study of Mus musculus with 5 samples.

Results

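The genes described here are the Notch receptors *Notch1*, *Notch2*, *Notch3* and *Notch4*, the ligands *Jag1*, *Jag2*, *Dll1* and *Dll4*, and the target genes *Hes1* and *Hey1*. These 10 genes, chosen with earlier results of these data known, were taken by name from the 30046 features of the counts, and all 10 were found. They were compared between 3 libraries of Dlx5CE-E12.5 cells and 2 libraries of Fgfr3CE-E12.5 cells, which are Cxcl12-GFPhigh tdTomato+ stromal cells sorted at postnatal day 21 (P21) from femurs without the distal growth plate, after a tamoxifen pulse at embryonic day 12.5 (E12.5). The Dlx5CE-E12.5 mice carried Cxcl12(GFP/+), Dlx5(CreER/+) and R26R(tdTomato/+), and the Fgfr3CE-E12.5 mice carried Cxcl12(GFP/+), Fgfr3-iCreER and R26R(tdTomato/+). Cxcl12-GFP is a GFP allele of the chemokine gene that defines CXCL12-abundant reticular (CAR) cells of the marrow, so both lineages had a single intact *Cxcl12* allele, and tdTomato labels the progeny of cells with an active creER at the time of the pulse. *Dlx5-creER* targets the perichondrium of the fetal cartilage, *Fgfr3-creER*, a transgene on a P1-derived artificial chromosome, targets its chondrocytes, and cells of littermates were pooled by genotype before the sort. The comparison asks how stromal cells of the same gate differ between these lineages. In the study, Dlx5CE-E12.5 stromal cells lay mainly in the diaphyseal marrow at P21, and Fgfr3CE-E12.5 stromal cells mainly in the metaphyseal marrow. Cell of origin and marrow location therefore cannot be told apart here.

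Notch receptors are transmembrane proteins that bind Jagged or Delta-like ligands on a neighbouring cell. Binding exposes the receptor to cleavage by ADAM proteases and then by gamma-secretase, and the released intracellular domain joins the DNA-binding protein RBPJ and a Mastermind-like coactivator to switch on targets such as the Hes and Hey repressors. In bone marrow stroma, Notch signaling is known for maintaining mesenchymal progenitors and restraining osteoblast differentiation.

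Total counts were 22035650 to 32563758 in the Dlx5CE-E12.5 libraries and 56355203 to 58166285 in the Fgfr3CE-E12.5 libraries. The values below are counts divided by the TMM-normalized library size (normalized CPM), on which a floor of 3 counts equals 0.0473 to 0.141 depending on the library. Such floors cover counting error only, since reads carried no molecular identifiers. According to the methods of the study, the lineages were sequenced on different instruments with different read lengths, although the labels name 1 instrument for all. The same methods give paired-end reads for Dlx5CE-E12.5 libraries and single-end reads for Fgfr3CE-E12.5 libraries. Instrument, read length and read layout therefore cannot be told apart from lineage. The cre sequence matched the labels, with 416 to 467 counts in Dlx5CE-E12.5 libraries and 1 in each Fgfr3CE-E12.5 library. The iCreERT2 sequence was present in both, with 451 to 521 counts in Dlx5CE-E12.5 libraries and 4802 and 3762 in Fgfr3CE-E12.5 libraries. Both reporters of the gate were lower in Fgfr3CE-E12.5 libraries. GFP had 10680 to 12340 normalized CPM against 7452 and 5646, and tdTomato 117 to 175 against 55 and 69.6. The summed level of 8 CAR stroma markers was 28900 to 30070 normalized CPM in Dlx5CE-E12.5 cells and 7996 to 11810 in Fgfr3CE-E12.5 cells, with no marker at 0, and was mostly *Cxcl12* itself (21250 to 22410 against 5801 and 8067). Of the 8, 5 were called as lower in Fgfr3CE-E12.5 cells, while *Foxc1*, a transcription factor of CAR cells, was higher (34.9 to 56.2 against 315 and 359) and *Pdgfrb* overlapped. Fgfr3CE-E12.5 libraries also held more of 8 chondrocyte markers (368 and 3107 against 6.01 to 9.33), of 10 leukocyte markers (1038 and 2115 against 320 to 403) and of 8 osteoblast markers (12490 and 15640 against 4442 to 6482). All 8 chondrocyte and all 10 leukocyte markers lay above the Dlx5CE-E12.5 range in both Fgfr3CE-E12.5 libraries, and *Col9a1*, *Matn1* and *Col10a1* were at 0 in every Dlx5CE-E12.5 library. Of the 8 osteoblast markers, 6 lay above that range, while *Bglap* and *Ibsp* overlapped between the lineages and were not called. Summed levels overlapped between the lineages for 10 endothelial markers (27.5 to 50.3 against 39.7 and 57.4) and 8 mural cell markers (181 to 318 against 234 and 287). The sum of 6 erythroid markers was 13560 to 27760 in Dlx5CE-E12.5 libraries and 8726 and 13370 in Fgfr3CE-E12.5 libraries. In these bulk samples, fewer cells of a type and less RNA per cell cannot be told apart, and the part of other cell types in the results below was not tested.

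*Notch2* was lower and *Hey1* higher in Fgfr3CE-E12.5 cells, and *Notch4* rose from a level close to the floor. *Notch3*, the receptor with the highest level per exon length, showed no difference beyond the spread between libraries. Genes were called at an adjusted p under 0.05 in edgeR's quasi-likelihood test together with a log2 fold change beyond 1 in either direction, where positive values mean higher in Fgfr3CE-E12.5 cells. Of the 6 members that passed a filter of 10 CPM in at least 2 libraries, 2 were called, 1 in each direction, and another 2 passed the adjusted p alone. Among all 10093 genes tested at that filter, 29.5% were called, 16.4% as higher in Fgfr3CE-E12.5 cells and 13.1% as higher in Dlx5CE-E12.5 cells. The median log2 fold change of the 6 members was -0.32, beside 0.01 for all genes tested. A filter of 1 CPM let all 10 members enter, of which 3 were called beside 29.5% of 13235 genes, and 5 had libraries that did not overlap between the lineages beside 66.6% of those genes. The share of members called was therefore near the background.

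**Figure D1:**
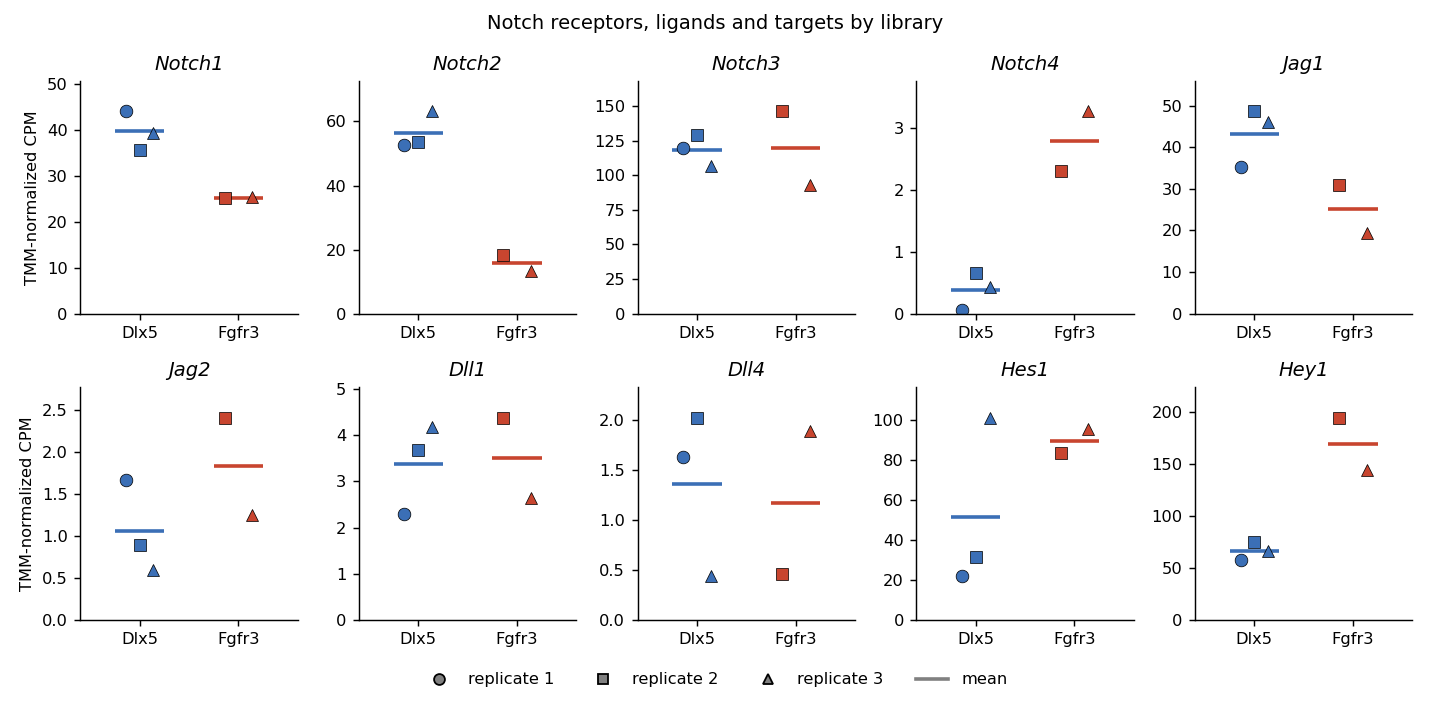
Normalized CPM of the 10 members in each library (y axis, linear from 0, scaled for each gene), with Dlx5CE-E12.5 libraries in blue and Fgfr3CE-E12.5 libraries in red. Horizontal bars are means of 3 and 2 libraries. *Notch2* lies at 52.8 to 63.2 against 13.4 and 18.2 and *Hey1* at 57.8 to 74.7 against 145 and 195, while *Notch3* and *Hes1* overlap.

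*Notch2* (ENSMUSG00000027878, chr3:98013527-98150361, plus strand, GRCm38) encodes the receptor that also governs marginal zone B cells and, in bone, osteoclast formation. Its level was 52.8, 53.5 and 63.2 normalized CPM in Dlx5CE-E12.5 replicates 1 to 3, and 18.2 and 13.4 in Fgfr3CE-E12.5 replicates 2 and 3. Every Dlx5CE-E12.5 library lay above both Fgfr3CE-E12.5 libraries, with a gap wider than the spread within either lineage. The means were 56.5 ± 5.82 (SD, n = 3) and 15.8 ± 3.40 (SD, n = 2), a 3.57-fold difference. *Notch2* fell by 1.83 on the log2 scale in Fgfr3CE-E12.5 cells (SE 0.20, 95% interval -2.30 to -1.36, adjusted p = 0.000493, edgeR). It was called in all 18 alternatives, with log2 fold changes from -2.07 to -1.33.

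*Notch4* (ENSMUSG00000015468, chr17:34564268-34588503, plus strand) encodes a receptor best known from endothelial cells. It had 2, 14 and 11 counts in the Dlx5CE-E12.5 libraries, or 0.065, 0.659 and 0.438 normalized CPM, the first of which is under the floor of that library. The Fgfr3CE-E12.5 libraries had 142 and 207 counts, or 2.31 and 3.27 normalized CPM, both above all Dlx5CE-E12.5 values. *Notch4* passed the filter of 1 CPM only through the Fgfr3CE-E12.5 libraries, so the filter itself selected it by its high group and its call is not independent of that choice. In this fit, its log2 fold change was 2.86 (SE 0.80, 95% interval 0.97 to 4.75, adjusted p = 0.0254, edgeR), so the size of the change is uncertain over a wide range. Of all genes at this filter, 16.6% were called as higher in Fgfr3CE-E12.5 cells. The call was kept in 13 of 18 alternatives and lost without Dlx5CE-E12.5 replicate 3 (log2 fold change 2.99, adjusted p = 0.0609, edgeR), without Fgfr3CE-E12.5 replicate 2 (3.08, adjusted p = 0.0539) and without Fgfr3CE-E12.5 replicate 3 (2.58, adjusted p = 0.11), while the direction stayed the same in all 18. Of the 10 endothelial markers, 2 lay above and 2 below the Dlx5CE-E12.5 range in both Fgfr3CE-E12.5 libraries, and at the filter of 1 CPM none was called as higher and 1 as lower in Fgfr3CE-E12.5 cells. Their part in the level of *Notch4* was not tested.

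*Notch1* (ENSMUSG00000026923, chr2:26457903-26516663, minus strand), the receptor best known from T cell development, had 44.1, 35.8 and 39.5 normalized CPM in Dlx5CE-E12.5 libraries and 25.2 and 25.4 in Fgfr3CE-E12.5 libraries. The lineages did not overlap, and the 2 Fgfr3CE-E12.5 values were nearly equal. Its log2 fold change was -0.65 (SE 0.16, adjusted p = 0.0137, edgeR), past the adjusted p but short of the fold threshold. Its log2 fold change moved with corrections for base composition and length, which was -1.0045 once a trend on GC content was taken out (adjusted p = 0.00247, edgeR) and 0.08 once a trend on exon length was taken out (adjusted p = 0.702, edgeR). Of its 14232 exon bases, 9.76% overlap transcripts of the opposite strand, and the strand setting of the counting is not given in the sources used here.

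*Notch3* (ENSMUSG00000038146, chr17:32120820-32166852, minus strand), known for its role in smooth muscle and pericytes, had 120.0, 129 and 107 normalized CPM in Dlx5CE-E12.5 libraries. The Fgfr3CE-E12.5 libraries, with 146 and 93.2, lay on both sides of these values. Its log2 fold change was 0.02 (SE 0.21, adjusted p = 0.958, edgeR), with a 95% interval of -0.48 to 0.51, and its sign turned in 6 of 18 alternatives. Mural cell markers moved unevenly. Of 7 tested at the filter of 1 CPM, 4 were called as higher in Fgfr3CE-E12.5 cells (*Acta2*, *Cspg4*, *Mcam* and *Tagln*) and 1 as lower (*Myh11*). Of all genes at this filter, 16.6% were called as higher. The overlapping summed level of mural markers was mostly *Rgs5* and *Abcc9*, which were not called. The part of mural cells in the level of *Notch3* was not tested.

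Read per exon length (RPKM, normalized CPM per kilobase of exon), *Notch3* made up 60.3% to 67.8% of the summed receptor level in Dlx5CE-E12.5 libraries and 77% and 82.8% in Fgfr3CE-E12.5 libraries. The share of *Notch2* was 21.1% to 26.8% in Dlx5CE-E12.5 libraries, against 7.75% and 8.32%. *Notch1* took 10.7% to 13.6% and 8.1% and 11.9%, which overlap, and *Notch4* never exceeded 2.71%. The order of mean levels in Dlx5CE-E12.5 cells was thus *Notch3* (14.7 RPKM), *Notch2* (5.24), *Notch1* (2.80) and *Notch4* (0.048), and no 2 neighbours overlapped between libraries. In Fgfr3CE-E12.5 cells it was *Notch3* (14.8 RPKM), *Notch1* (1.78), *Notch2* (1.47) and *Notch4* (0.346), where the *Notch1* values of 1.77 and 1.79 and the *Notch2* values of 1.69 and 1.25 lay close together. The summed receptor level was 21.9 to 23.5 RPKM in Dlx5CE-E12.5 libraries and 15.0 and 21.8 RPKM in Fgfr3CE-E12.5 libraries.

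**Figure D2:**
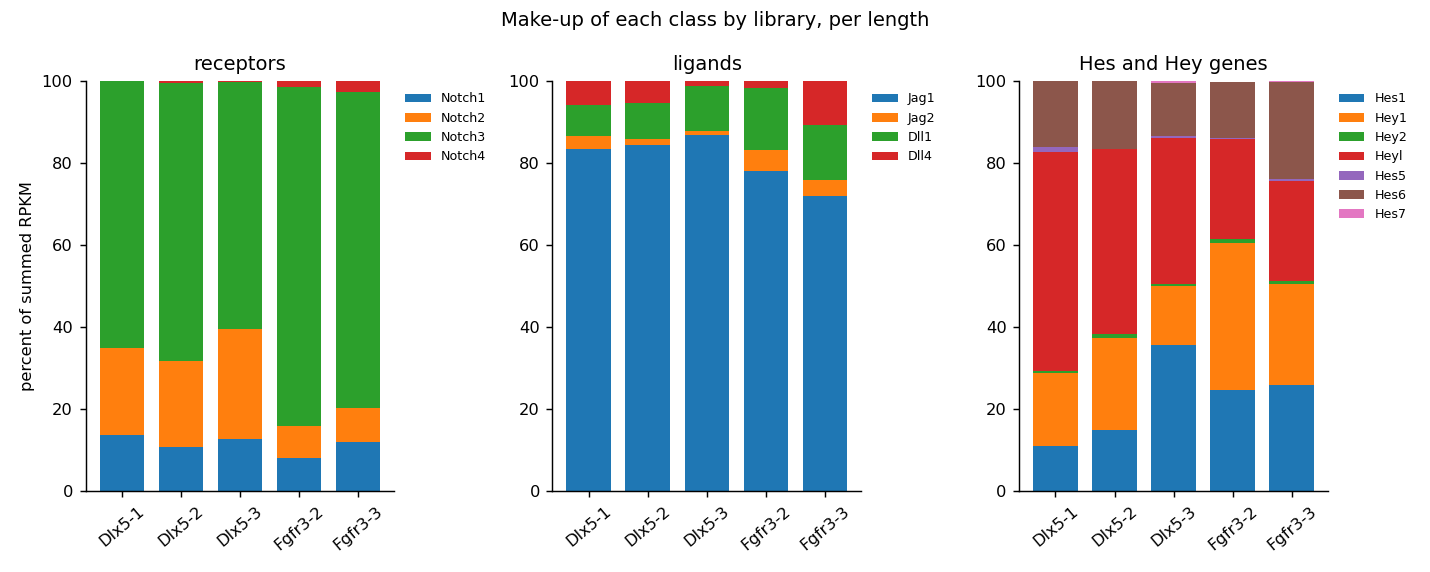
Share of each gene in the summed RPKM (percent, y axis) of the 4 receptors, the 4 ligands and the Hes and Hey genes, with a stacked bar for each of the 5 libraries. *Notch3* and *Jag1* take the largest share of their class in every library, the share of *Notch2* is smaller in the Fgfr3CE-E12.5 libraries (7.75% and 8.32% against 21.1% to 26.8%), and *Hes1* takes 35.5% in Dlx5CE-E12.5 replicate 3 against 10.9% and 15% in the other Dlx5CE-E12.5 libraries.

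Among the ligands, *Jag1* (ENSMUSG00000027276, chr2:137081456-137116644, minus strand), the Jagged ligand of the stem cell niche, was the only member to pass the filter of 10 CPM. It had 35.2, 48.6 and 45.9 normalized CPM in Dlx5CE-E12.5 libraries and 31.0 and 19.3 in Fgfr3CE-E12.5 libraries. The lineages did not overlap, but Dlx5CE-E12.5 replicate 1 and Fgfr3CE-E12.5 replicate 2 were close. Its log2 fold change was -0.78 (SE 0.25, 95% interval -1.38 to -0.18, adjusted p = 0.0389, edgeR), which did not reach the fold threshold. Leaving out Fgfr3CE-E12.5 replicate 2 gave -1.16 and a call (adjusted p = 0.0113, edgeR), and with any single library left out it ranged from -1.16 to -0.48 with an adjusted p of up to 0.15.

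The other ligands were low, and the lineages overlapped in all 3. *Jag2*, the second Jagged ligand, had 0.597 to 1.66 normalized CPM in Dlx5CE-E12.5 libraries and 1.25 and 2.41 in Fgfr3CE-E12.5 libraries, with a log2 fold change of 0.76 (SE 0.62, 95% interval -0.71 to 2.24, adjusted p = 0.36, edgeR). *Dll1*, a Delta-like ligand of somite and lymphocyte development, had 2.28 to 4.18 normalized CPM against 2.65 and 4.39, with a log2 fold change of 0.04 (SE 0.45, 95% interval -1.01 to 1.09, adjusted p = 0.95, edgeR). *Dll4*, the ligand of endothelial tip cells, had 0.438 to 2.03 normalized CPM against 0.455 and 1.89, with a log2 fold change of -0.23 (SE 0.85, 95% interval -2.24 to 1.77, adjusted p = 0.844, edgeR). These intervals include changes of more than 2-fold, so differences of that size are not excluded here. Of the exon bases of *Dll1*, 20.5% overlap a transcript of the opposite strand, so its counts are uncertain. In RPKM, *Jag1* made up 83.4% to 86.9% of the summed level of the 4 ligands in Dlx5CE-E12.5 libraries and 71.9% and 78% in Fgfr3CE-E12.5 libraries. The summed ligand level was 7.24 to 9.87 RPKM against 4.62 and 6.83 RPKM.

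*Hey1* (ENSMUSG00000040289, chr3:8663359-8667256, minus strand) encodes a repressor of the Hes and Hey family that Notch induces. Its level was 57.8, 74.7 and 66.2 normalized CPM in Dlx5CE-E12.5 libraries, and 195 and 145 in Fgfr3CE-E12.5 libraries. Both Fgfr3CE-E12.5 libraries lay above all Dlx5CE-E12.5 libraries. The means were 66.2 ± 8.50 (SD, n = 3) and 170 ± 35.5 (SD, n = 2), and the log2 fold change was 1.36 (SE 0.18, 95% interval 0.93 to 1.78, adjusted p = 0.00112, edgeR), or 2.56-fold. It was called in 17 of 18 alternatives, the exception being a test for a change above 2-fold (adjusted p = 0.07, edgeR's glmTreat).

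*Hes1* (ENSMUSG00000022528, chr16:30064384-30067796, plus strand), the most widely used of the Notch targets and a repressor that also responds to other signals, did not follow *Hey1* in every library. Its level was 21.9, 31.4 and 101 normalized CPM in Dlx5CE-E12.5 replicates 1 to 3, and 83.5 and 95.5 in Fgfr3CE-E12.5 libraries. Dlx5CE-E12.5 replicate 3 was thus the highest of the 5 libraries, with a 4.62-fold range within Dlx5CE-E12.5 cells. Over all libraries the log2 fold change was 0.80 (SE 0.58, 95% interval -0.59 to 2.18, adjusted p = 0.298, edgeR). Without Dlx5CE-E12.5 replicate 3 it was 1.75 (adjusted p = 0.0019, edgeR) and the gene was called, the only call of *Hes1* in 18 alternatives. *Hey1* had 66.2 normalized CPM in the same library, between the other Dlx5CE-E12.5 libraries. Immediate early genes, which stimuli and handling of cells induce within minutes and which were chosen after the values of *Hes1* were seen, were also highest in replicate 3 among Dlx5CE-E12.5 libraries. *Ier2* had 371, 422 and 850 normalized CPM in replicates 1 to 3, and *Atf3* had 149, 137 and 282, beside 431 and 492 for *Ier2* and 112 and 134 for *Atf3* in Fgfr3CE-E12.5 libraries. *Jun*, *Junb*, *Fos*, *Egr1* and *Dusp1* had their highest Dlx5CE-E12.5 value in replicate 3 as well. Between the lineages, *Ier2* and *Egr1* overlapped, *Egr1* with 2055 and 1388 normalized CPM in Fgfr3CE-E12.5 libraries against 1126 to 1638. *Jun*, *Junb*, *Fos*, *Dusp1* and, by a small margin, *Atf3* were lower in both Fgfr3CE-E12.5 libraries. *Jun* had 1043 and 1342 normalized CPM there against 3183 to 4917, and *Junb* 1354 and 1236 against 2812 to 4790. *Fos* had 2177 and 1564 against 2518 to 3615, and *Dusp1* 912 and 825 against 1415 to 1966. The part of these immediate early genes in the level of *Hes1* was not tested.

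Per exon length, the order of the target levels differed between libraries of the same lineage. *Hes1* was below *Hey1* in Dlx5CE-E12.5 replicate 1 (10.8 against 17.7 RPKM) and above it in replicate 3 (49.7 against 20.3 RPKM), and *Hey1* led in Fgfr3CE-E12.5 replicate 2 (59.7 RPKM) and *Hes1* in replicate 3 (46.9 RPKM). *Heyl*, a further Hes and Hey gene, took 35.6% to 53.4% of the summed RPKM of 7 Hes and Hey genes in Dlx5CE-E12.5 libraries and 24.5% in both Fgfr3CE-E12.5 libraries, while its normalized CPM of 237 to 270 against 209 and 227 gave a log2 fold change of -0.22 (adjusted p = 0.217, edgeR). *Hes6*, a family member that opposes *Hes1* in neurons, had 28.7 to 33.0 normalized CPM against 41.3 and 77.7 and a log2 fold change of 0.95, past the adjusted p alone (0.0212, edgeR). *Hey2*, known from heart and arteries, had 2.28 to 4.52 normalized CPM against 6.58 and 7.62, with a log2 fold change of 1.00 at the filter of 1 CPM (adjusted p = 0.0661, edgeR).

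**Figure D3:**
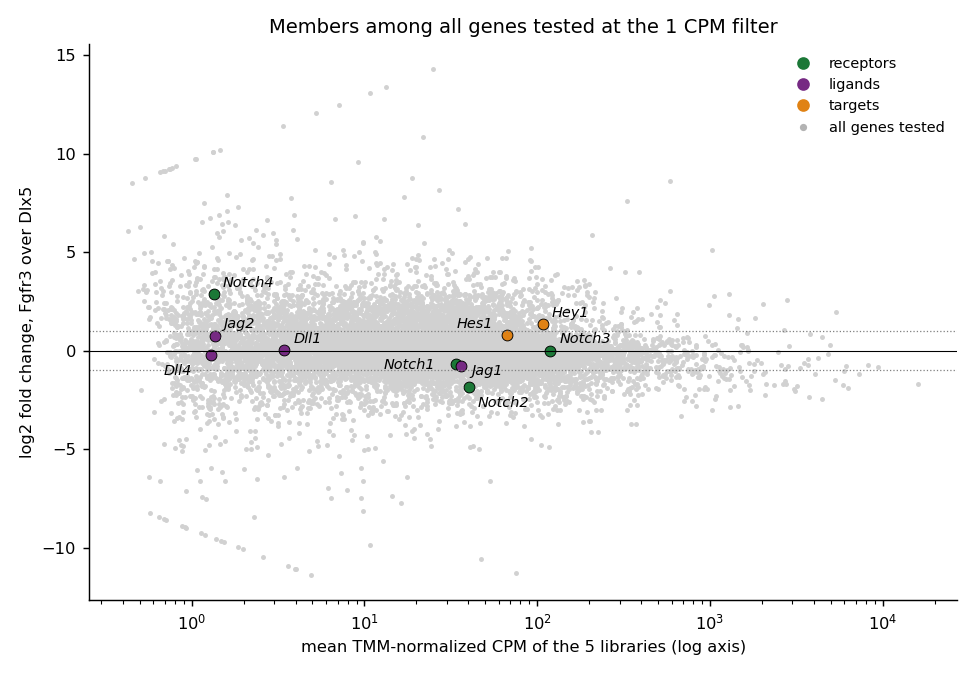
Log2 fold change of Fgfr3CE-E12.5 over Dlx5CE-E12.5 cells (y axis) against the mean normalized CPM of the 5 libraries (x axis, log scale) for the 13235 genes tested at the filter of 1 CPM (grey) and the 10 members (coloured by role). Dotted lines mark log2 fold changes of 1 in either direction, and *Notch4*, *Jag2* and *Dll4* lie at the low end of the levels.

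The other genes of the pathway were read from a list of 51 genes, of which 50 were in the counts. At the filter of 10 CPM, 37 were tested and 8 were called, or 21.6% beside the 29.5% of all genes, with 3 higher in Fgfr3CE-E12.5 cells and 5 higher in Dlx5CE-E12.5 cells. Another 7 passed the adjusted p alone, and the median log2 fold change was -0.16.

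In the nucleus, *Rbpj*, the DNA-binding partner of the receptor's intracellular domain, had 91.3 to 94.8 normalized CPM in Dlx5CE-E12.5 libraries and 58.5 and 83.6 in Fgfr3CE-E12.5 libraries. Its log2 fold change of -0.38 did not pass the test (adjusted p = 0.114, edgeR). The coactivators fell in part. *Maml2* had 35.9 to 36.6 normalized CPM in Dlx5CE-E12.5 libraries against 5.82 and 11.8, a log2 fold change of -2.05 (adjusted p = 0.00199, edgeR). *Maml1* had 19.2 to 27.3 normalized CPM against 9.45 and 12.5, a log2 fold change of -1.10 (adjusted p = 0.00873, edgeR). *Maml3*, tested at the filter of 1 CPM, gave 0.37 (adjusted p = 0.347, edgeR).

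Of 11 regulators of receptor trafficking and turnover tested at the filter of 10 CPM, 4 were called (36.4%, beside 29.5% of all genes), 2 in each direction. *Numb*, an adaptor that antagonizes Notch receptors, rose, with 14.6 to 17.8 normalized CPM in Dlx5CE-E12.5 libraries against 53.0 and 57.1 in Fgfr3CE-E12.5 libraries, a log2 fold change of 1.74 (adjusted p = 0.000263, edgeR). Its paralog *Numbl* also rose, with 10.7 to 15.2 normalized CPM against 29.9 and 42.3, and a log2 fold change of 1.43 (adjusted p = 0.00266, edgeR). *Neurl1a*, a ubiquitin ligase of the Neuralized family that acts on ligands, fell, with 7.11 to 15.0 normalized CPM against 1.06 and 1.14 and a log2 fold change of -3.44 (adjusted p = 0.000812, edgeR). *Nedd4*, a ubiquitin ligase with many substrates besides Notch, fell, with 1631 to 1676 normalized CPM against 478 and 761 and a log2 fold change of -1.41 (adjusted p = 0.00256, edgeR). The lineages did not overlap in 8 of the 11 regulators, the 4 called ones among them, beside 6958 of all 10093 genes tested.

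Among 10 genes of receptor cleavage, only *Psenen*, a gamma-secretase subunit, was called at the filter of 10 CPM, with 36.3 to 41.7 normalized CPM against 16.7 and 20.5 and a log2 fold change of -1.05 (adjusted p = 0.0028, edgeR). Of its 50-base windows, 23.4% also occur in another gene, so its counts are uncertain. The sheddase *Adam10* gave 0.16 on the log2 scale (adjusted p = 0.346, edgeR).

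Of the enzymes that add sugars to Notch, *Xxylt1*, a xylosyltransferase that extends O-glucose chains, rose, with 14.4 to 16.8 normalized CPM against 33.8 and 41.5 and a log2 fold change of 1.28 (adjusted p = 0.00129, edgeR). The 3 fringe genes, whose enzymes alter the preference of the receptors between Jagged and Delta-like ligands, were not called. *Lfng* had a log2 fold change of -0.30 (adjusted p = 0.203, edgeR), *Rfng* of 0.36, past the adjusted p alone (0.0461, edgeR), and *Mfng*, at the filter of 1 CPM, of 1.37 (adjusted p = 0.105, edgeR).

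**Figure D4:**
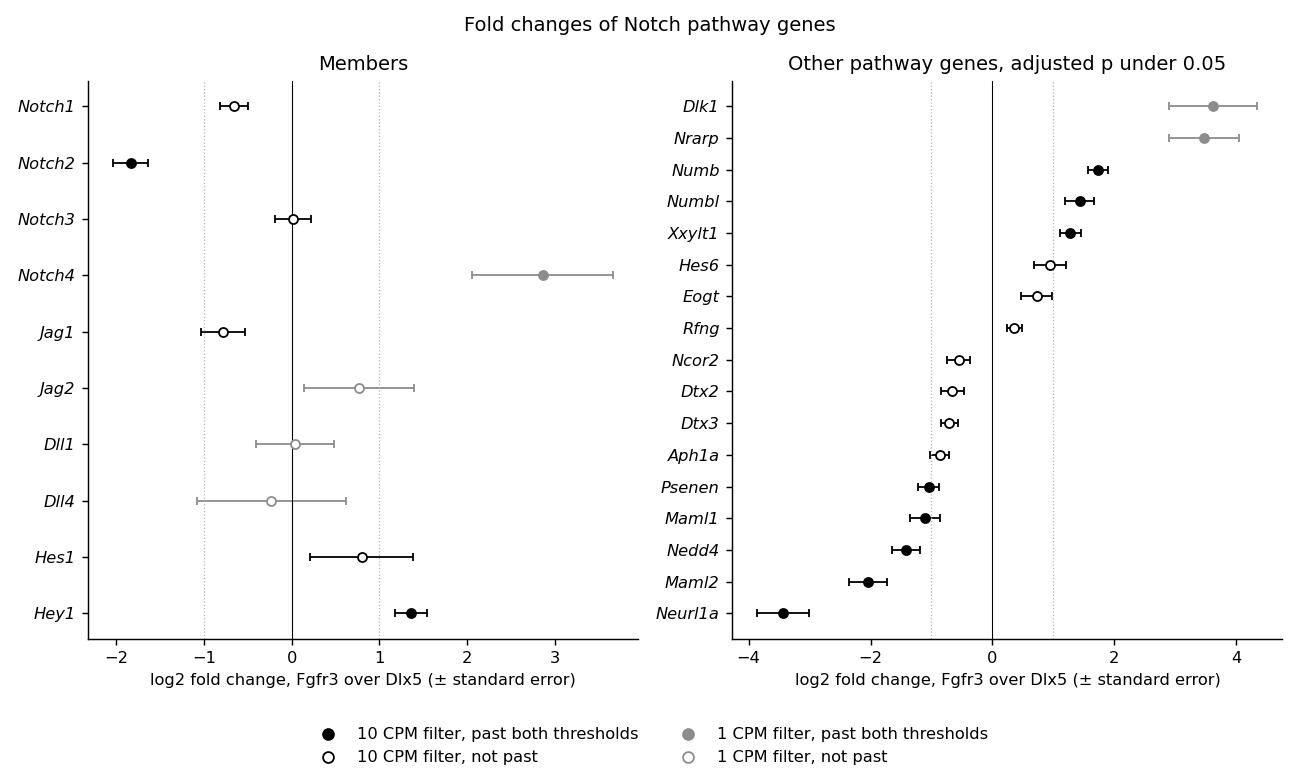
Log2 fold changes of Fgfr3CE-E12.5 over Dlx5CE-E12.5 cells (x axis) with standard errors for the 10 members (left) and for the 17 other pathway genes with an adjusted p under 0.05 in edgeR's test (right). Filled points passed the adjusted p and the fold threshold, and grey points come from the fit at the filter of 1 CPM. *Notch2* at -1.83 and *Hey1* at 1.36 are the members called at the filter of 10 CPM, and *Neurl1a* at -3.44 and *Numb* at 1.74 are the outermost other genes at that filter. *Neurl1a* passed that filter only through Dlx5CE-E12.5 libraries.

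At the filter of 1 CPM, 46 other pathway genes were tested and 10 were called, adding *Dlk1* and *Nrarp*, which are named after their values were seen. Both passed that filter only through the Fgfr3CE-E12.5 libraries, so their calls are not independent of the filter. *Dlk1*, a noncanonical ligand and inhibitor of adipocyte formation, had 7, 10 and 2 counts in Dlx5CE-E12.5 libraries and 148 and 256 in Fgfr3CE-E12.5 libraries, with a log2 fold change of 3.63 (adjusted p = 0.00682, edgeR). *Nrarp*, a Notch target that limits signaling, had 13, 4 and 16 counts against 241 and 358, with a log2 fold change of 3.48 (SE 0.58, adjusted p = 0.00315, edgeR). Of the exon bases of *Nrarp*, 79.4% overlap an antisense gene, so without strand the reads of both genes cannot be told apart and its counts are uncertain.

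The regions before the gene starts are shown for *Notch2* and *Notch4*, the receptors called in opposite directions, and for *Hey2*, a target gene whose window holds the core motif of RBPJ, TGGGAA. Windows of 300 bases, 250 before and 50 after the start, were taken from RefSeq on GRCm38.p6, and 8 of the 10 members matched, all except *Hes1* and *Hey1*. The 250 bases before the start are printed 5′ to 3′ on the strand of the gene, with the motif or its reverse complement TTCCCA in capitals.
*Notch2*, chr3:98013288-98013537, plus strand: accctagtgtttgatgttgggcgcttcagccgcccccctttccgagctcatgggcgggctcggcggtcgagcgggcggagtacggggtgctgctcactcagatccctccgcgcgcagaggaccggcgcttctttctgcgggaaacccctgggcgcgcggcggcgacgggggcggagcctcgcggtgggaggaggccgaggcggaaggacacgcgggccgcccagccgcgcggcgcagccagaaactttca
*Notch4*, chr17:34564045-34564294, plus strand: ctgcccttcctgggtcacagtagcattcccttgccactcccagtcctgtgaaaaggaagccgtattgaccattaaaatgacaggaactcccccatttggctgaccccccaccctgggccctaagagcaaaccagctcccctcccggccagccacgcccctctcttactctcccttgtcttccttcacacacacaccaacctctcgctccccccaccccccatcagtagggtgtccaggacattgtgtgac
*Hey2*, chr10:30842784-30843033, minus strand: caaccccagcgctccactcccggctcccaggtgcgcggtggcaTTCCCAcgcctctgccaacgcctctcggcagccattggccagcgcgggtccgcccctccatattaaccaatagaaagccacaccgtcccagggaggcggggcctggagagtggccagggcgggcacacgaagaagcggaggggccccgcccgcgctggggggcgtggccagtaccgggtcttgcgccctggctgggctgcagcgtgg
None of the 9 windows of the 8 members held TGGGAA on either strand, beside 25.6% of 32851 RefSeq windows. Of 5 other target genes with a window, *Hes5*, *Hes7* and *Hey2* held it, *Hes5* and *Hey2* on both strands, beside 1.81% of all windows. The second match of *Hey2* spans its start and reaches beyond the bases printed. A match is a description of these letters only. The GC content of the bases printed was 72% for *Notch2* and 58.4% for *Notch4*.

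**Figure D5:**
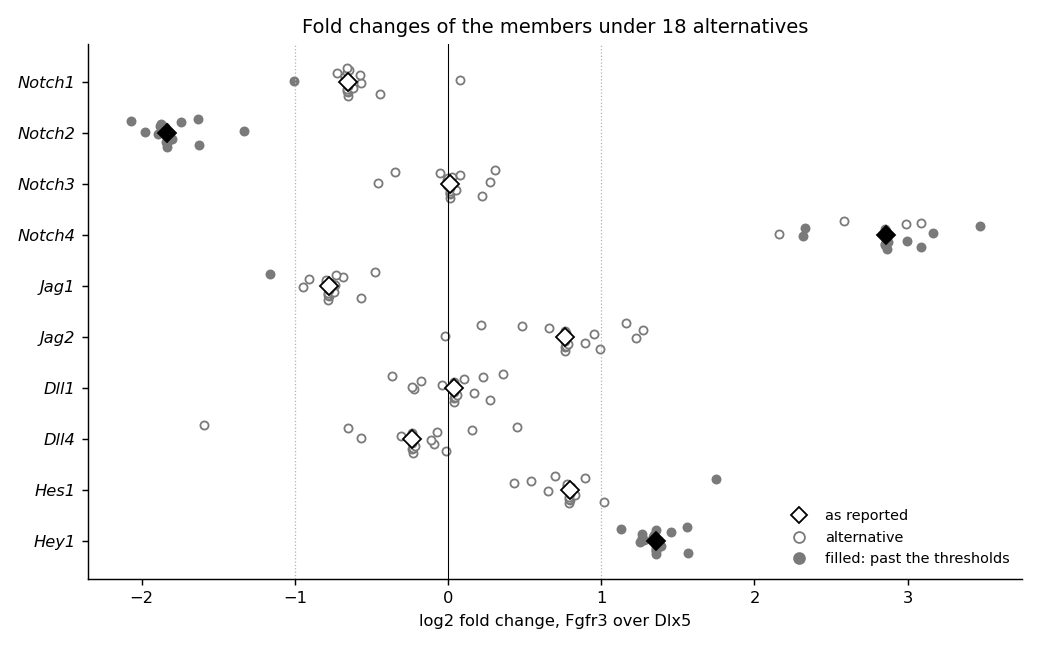
Log2 fold changes of Fgfr3CE-E12.5 over Dlx5CE-E12.5 cells (x axis) for each member as reported (diamonds) and under 18 alternatives of normalization, test, filter and libraries (circles). Filled symbols passed the thresholds of their setting. *Notch2* stays between -2.07 and -1.33 and is called throughout, *Hey1* stays between 1.13 and 1.57, and *Hes1* at 1.75 is the value without Dlx5CE-E12.5 replicate 3.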

How the data were processed

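Bulk RNA-seq of 5 libraries was analysed. Per the study's methods and the submitters' processing notes, the authors amplified complementary DNA with a SMART-Seq kit, made Nextera XT libraries, aligned reads to mm10 with TopHat2 2.0.13 and Bowtie2 2.2.1, and deposited raw read counts per gene without normalization. The processing notes also name HTSeq, with no role given, and the strand setting is not given in the sources used here. The deposited rlog values and depth-normalized values were not used. Groups came from the sample labels. The members and gene lists were chosen with earlier results of these data known.

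Symbols, gene types, exon lengths and coordinates came from GENCODE M21 on GRCm38 (mm10), in which 45 identifiers were not found. Protein-coding genes (17115) and 5 reporter sequences that reached 10 CPM in 2 or more libraries entered the fit in R 4.3.3 with edgeR 4.0.16 (TMM, quasi-likelihood test, no covariates), and Benjamini-Hochberg adjustment covered all genes tested. Members under that filter were taken from a second fit at 1 CPM. A call needed an adjusted p under 0.05 and a log2 fold change beyond 1 in either direction. The text names all 10 members, called pathway genes, *Rbpj* and the fringe genes, with others named as seen after their values. The fit was tested on simulated counts with 200 changed genes. Total counts were 22035650 to 58166285, and the number of libraries sets the precision more than depth does. The study calls the libraries biological replicates, so each counted as 1 sample. Within a lineage, no pair differed by less than sampling noise. Separately amplified libraries of 1 cell pool could also differ that much, so this check cannot show independence. Alternatives were other size factors, tests (DESeq2 1.42.0, edgeR's exact test), filters, thresholds, features, a replicate block, removal of trends on GC content and exon length, and each library left out. The 1 CPM filter in at least 1 library was added after seeing the data. Figures were drawn with matplotlib 3.10.9.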

Additional observations from a re-analysis of the deposited data

How the results depend on the processing

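The call of *Notch2* was kept in all 18 alternatives and that of *Hey1* in 17. Without a fold threshold, 4 members were called at the filter of 10 CPM, 5 members at 1 CPM, 15 other pathway genes and 4885 of all genes. Under a test for a change above 2-fold these were 1, 1, 3 and 1672, and *Notch4* lost its call (adjusted p = 0.0917). The construction of these thresholds sets such counts. *Notch3* turned to -0.0053 both with the replicate block and at a filter of 1 CPM, to -9e-04 at 10 CPM in at least 1 library and to -0.46 after removal of the GC trend, and ranged from -0.35 to 0.30 with each library left out. *Notch1* turned to 0.0801 without the length trend, and *Jag2* to -0.0189 without the GC trend, which also took the call of *Notch4* (2.16, adjusted p = 0.0637). *Dll1* turned to -0.22 with the block, -0.23 without the GC trend and -0.0409 without the length trend, and ranged from -0.37 to 0.36 with each library left out, as did *Dll4* from -1.59 to 0.45. The cause was not tested. With library size alone, the median of all genes moved from 0.01 to 0.22, and 66.3% of calls were higher in Fgfr3CE-E12.5 cells against 55.6%. Removal of the length trend gave 63.5%. With each library left out, called members numbered 2 to 3 at 10 CPM and at 1 CPM, other pathway genes 7 to 9 and all genes 2539 to 3298.

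Same-numbered libraries correlated at 0.13 and -0.05 in their deviations from the lineage mean over 10093 genes. The deviations of the 2 Fgfr3CE-E12.5 libraries mirror each other, so these values cannot decide whether the numbers pair libraries. With the replicate number as a block, 2 members, 8 other pathway genes and 3067 of all genes were called. With 3 and 2 libraries, low members such as *Dll4* and *Jag2* were limited by the spread between libraries.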
